A study of Homo sapiens with 2 samples.

Results

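The genes described here are 7 sensors of viral nucleic acid and 1 signalling adaptor: IFIH1, RIGI, TLR3, AIM2, EIF2AK2, DDX60, DDX60L and MAVS. They were taken by gene symbol, each had exactly 1 probe set, and together they are 8 of the 14884 genes that carry a name on the array. RNA came from HT1080, an established human fibrosarcoma cell line. One culture had received a non-targeting control shRNA and the other an shRNA against cMyc, with 1 Affymetrix Human Gene 2.0 ST array each. A short hairpin RNA (shRNA) lowers the messenger RNA it matches; both were delivered by virus, with harvest 48 hours later, so the control had also been exposed to a virus and to a hairpin RNA. The series text also speaks of transfection, the labels do not name the hairpin sequences or the viral vector, and cells left without virus were not analysed here.

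All 7 sensors stood at least 4-fold above the control in cells given the cMyc shRNA, whereas the adaptor MAVS read nearly the same in both. The median log2 difference of the 8 genes was 3.23, or 9.40-fold, against -0.01 over the 10258 measured named genes. At least 2-fold higher were 7 of 8 genes, and 2.01% of all measured named genes were. At least 4-fold higher were the same 7 genes, against 0.458% of all. At least 2-fold lower were 0 of 8 genes, against 4% of all. The genes were chosen by this very difference, cMyc shRNA against control, so the counts describe the choice and support nothing. A gene counted as measured when the mean of its levels on both arrays was at least 3.70, which is the median of such means over the probe sets, and all 8 genes passed. IFIH1, whose control level of 3.45 is under that minimum, passed only through its cMyc shRNA level. Levels are on a log scale whose base was inferred to be 2, and every difference is the cMyc shRNA level minus the control level.

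Cells detect viruses through proteins that bind nucleic acids of unusual form or in an unusual place. RIG-I (gene RIGI) and MDA5 (gene IFIH1) are RNA helicases of the cytosol that, once bound to viral RNA, engage MAVS on the mitochondrial surface, and MAVS relays the signal to kinases that switch on interferon genes. TLR3 does the same from the endosome through another adaptor, TRIF (gene TICAM1), AIM2 binds cytosolic DNA and assembles an inflammasome, and the kinase PKR (gene EIF2AK2) stops translation on binding double-stranded RNA. Interferon in turn raises the transcription of many sensors through the interferon-stimulated response element, a DNA motif with a pair of GAAA blocks. MYC, the target of the shRNA, is a transcription factor of growth and proliferation genes.

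Each group had 1 array, so nothing measures the spread between replicates, no test could be made and no difference below has a replicate check. The only repeat measurement was between probe sets of 1 gene: over 416 other genes with several measured probe sets, the SD of a single probe set's difference was 0.34 on the log2 scale. It is technical and holds no variation between cultures or infections. MYC read 7.09 with the control shRNA and 6.16 with the cMyc shRNA, a difference of -0.93 (1.91-fold lower). The direction was that of its label, but the size fell short of 2-fold. Of 9 mesenchymal markers named on the array 6 were measured, with differences from -0.59 to 0.36; FN1 (12.4 for the control, then 12.6), SNAI2 (11.4 both times) and VIM (9.94 and 9.34) were far above the array median, while LUM, DCN and S100A4 lay under the level minimum. Epithelial markers had 4 of 10 measured, with a median difference of -0.57, and endothelial markers 4 of 8, with a median of -0.20; KRT18 (9.09 and 8.41) and ENG (8.99 and 8.30) were also far above it. Of 6 measured housekeeping genes 2 passed 2-fold downward, HPRT1 (-1.04) and the transcription factor gene TBP (-1.01). B2M (1.01) passed 2-fold upward and was the only 1 of the 6 above 0, and the median was -0.59. Of 9 myeloid and dendritic cell markers named on the array 4 were measured, and CD14, CD163, LYZ, CD86 and CD1C lay under the level minimum. Their linear levels summed to 1533 in control cells and to 2728 after the cMyc shRNA, most of it from CD68, a lysosomal protein. The 4 measured markers differed by -0.81 (CSF1R, 6.15 and 5.34) to 0.91 (CD68), with 3 of them above 0. Of 6 lymphocyte markers 5 were measured, with differences from -0.32 to 0.35. The part of other cell types, and of the shift in housekeeping genes, in the results was not tested, and in RNA of a whole culture more cells that express a gene and more RNA per cell cannot be told apart.

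MDA5 and RIG-I, the cytosolic receptors that signal through MAVS, differed from each other in how far they stood from the control. IFIH1 read 3.45 with the control shRNA and 8.52 with the cMyc shRNA. Its control level was below the array median of 3.68 and its cMyc shRNA level far above, and the difference of 5.07 (33.6-fold) ranked 3 among all 10258 measured named genes, behind IFIT1 and IFIT2. No detection call exists for the control value, so the fold and the rank are uncertain; with both arrays raised to 3.70 before subtraction the difference was 4.81 (28.1-fold) and ranked 4, behind RSAD2 as well. RIGI read 7.69 with the control shRNA and 10.7 with the cMyc shRNA, a difference of 3.01 (8.05-fold) that ranked 23. RIGI was above the array median both times, and IFIH1 only with the cMyc shRNA. The gap between their differences exceeded 0.48, the technical SD expected of a gap between 2 probe sets.

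The promoters of these genes are shown because the 7 sensors stood higher together. RefSeq's promoter table (build GRCh38.p14) holds 1 window for each of the 8 genes, from 250 bases before the annotated transcript start to 50 bases from it onward. The windows were searched on both strands for the core of the interferon-stimulated response element: GAAA, then any 2 bases, then GAAA (on the other strand TTTC, any 2 bases, TTTC). Matches may overlap. It is called the 2-base spacer motif below. Capitals below mark the matches, with up to 20 bases on each side, and each stretch is written on its gene's strand. The IFIH1 stretch is chr2:162318685-162318863, minus strand, 179 bases that end at the start site. RIGI had no match to these letters; the capitals in chr9:32526371-32526419, minus strand, mark the 1-base spacer motif, with a single base between the blocks, which was searched for only after the RIGI window had been seen.
IFIH1: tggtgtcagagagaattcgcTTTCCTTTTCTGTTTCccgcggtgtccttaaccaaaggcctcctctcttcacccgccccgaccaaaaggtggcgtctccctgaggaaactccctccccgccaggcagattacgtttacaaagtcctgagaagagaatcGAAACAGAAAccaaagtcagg
RIGI: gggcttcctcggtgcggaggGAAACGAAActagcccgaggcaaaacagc

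The IFIH1 window held 3 matches, an overlapping pair that begins 159 and 153 bases before the start and a single one that begins 21 bases before it. The match in the RIGI window lay farther out, with its first base 203 bases before the start. Windows with 2 or more matches to the 2-base spacer motif made up 0.259% of the 35116 windows in the whole table. A match is a stretch of letters and does not show that a factor bound there.

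DDX60 and its paralogue DDX60L, DExD/H-box helicases that interferon induces and that have been described as aiding RNA sensing, differed from the control to a like extent. DDX60 read 4.74 with the control shRNA and 8.61 with the cMyc shRNA, a difference of 3.87 (14.6-fold) that ranked 10. DDX60L read 5.09 and 8.52 on the same arrays, a difference of 3.43 (10.8-fold) that ranked 17. The pair's differences lay 0.44 apart, less than the technical SD of such a gap. Since the genes are paralogues, their probes may share signal, which was not tested.

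The genes lie one after the other on chromosome 4, both on the minus strand, with 161740 bases between their starts and 0 genes of the RefSeq table between them. Of 7 measured genes in a list of their neighbours on the chromosome, 0 passed 2-fold either way and the median difference was -0.10. The differences ran from -0.44 for MSMO1 to 0.81 for CPE, with CBR4 at -0.05 and SH3RF1 at -0.02. The promoter stretches are shown for the arrangement they share. That of DDX60 is chr4:168318776-168318860 and that of DDX60L chr4:168480513-168480592.
DDX60: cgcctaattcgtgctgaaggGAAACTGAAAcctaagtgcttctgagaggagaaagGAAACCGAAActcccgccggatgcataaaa
DDX60L: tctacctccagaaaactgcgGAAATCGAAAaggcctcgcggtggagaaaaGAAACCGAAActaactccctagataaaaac

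Each window held 2 matches, at 88 and 53 bases before the start in DDX60 and at 80 and 50 bases in DDX60L. The match nearer the start had the same letters in both genes, and the outer ones differed. Over the whole windows the pair was 57.3% identical in a global alignment, the highest of the 28 pairs among the 8 windows, whose next highest value was 51.9%. Their longest common run was 15 bases.

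TLR3, the endosomal receptor of double-stranded RNA, was the only toll-like receptor that differed by 2-fold. It read 4.89 with the control shRNA and 8.40 with the cMyc shRNA, a difference of 3.51 (11.4-fold) that ranked 15. Of the other receptors of its family, TLR4, which recognises bacterial lipopolysaccharide, read 7.82 and 7.04 (a difference of -0.78), TLR6 differed by 0.16 and TLR9, a DNA receptor, by -0.10. TLR1, TLR2, TLR5, TLR7, TLR8 and TLR10 had mean levels under the minimum, and none of them differed by more than 0.24 in size.

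Transcripts for the rest of the TLR3 route were flat or went both ways. TICAM1, which encodes its adaptor TRIF, read 6.96 with the control shRNA and 6.18 with the cMyc shRNA, a difference of -0.78. UNC93B1, which escorts TLR3 and other nucleic acid receptors to the endosome, read 6.12 and 6.91, a difference of 0.79. The list of toll-like receptors and their trafficking had 9 measured genes, of which TLR3 alone passed 2-fold in either direction, and its median was -0.10. Without TLR3 the 8 others had a median of -0.21, and with the level minimum at the 75th percentile the list median was -0.46. The TLR3 promoter is shown because its match spans the start site: the stretch chr4:186069132-186069161, plus strand, runs 6 bases into the transcript.
TLR3: cattttttttcaagctttacTTTCACTTTC

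AIM2, the only DNA sensor of the chosen genes, read 4.39 with the control shRNA and 7.42 with the cMyc shRNA, a difference of 3.03 (8.18-fold) that ranked 22. Both readings were above the medians of their arrays, the first by 0.71. The measured partners of AIM2 did not follow it. PYCARD, which encodes the inflammasome adaptor ASC, read 4.94 and 5.28 (a difference of 0.34). GSDMD, the pore-forming protein cut by inflammatory caspases, differed by 0.01. MNDA, a relative of AIM2 in the HIN-200 family, and IL18, an inflammasome cytokine, lay under the level minimum on both arrays. CASP1, another of the direct partners, was not analysed here.

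Other DNA sensing genes were mostly near 0. STING1, the adaptor of the cGAS route, differed by -0.18, and CGAS read 3.18 and 2.70, under the level minimum. Of the 9 measured genes in the list of DNA sensors and inflammasome 2 were at least 2-fold higher, AIM2 and SAMHD1, a nucleotide hydrolase that restricts viruses, at 2.59. The list median was 0.12, and XRCC5 (0.12) and MRE11 (-0.41), DNA repair proteins also described as DNA sensors, lay within 2-fold. The AIM2 promoter match begins 190 bases before the start and lies in chr1:159076927-159076976, minus strand.
AIM2: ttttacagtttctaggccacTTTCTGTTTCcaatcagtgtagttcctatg

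EIF2AK2, which encodes PKR, had the smallest difference of the 7 sensors. It read 8.21 with the control shRNA and 10.3 with the cMyc shRNA, a difference of 2.12 (4.35-fold) that ranked 45. The 3 other kinases that phosphorylate the same translation factor, eIF2, did not share this: EIF2AK1, activated by lack of haem, differed by -0.29, EIF2AK3, the kinase of endoplasmic reticulum stress, by 0.17, and EIF2AK4, which senses amino acid shortage, by -0.01. ATF4 and DDIT3, transcription factors downstream of eIF2 phosphorylation, differed by -0.34 and 0.22. In the list of eIF2 kinases and their partners EIF2AK2 was the only 1 of 7 measured genes past 2-fold, and the median was -0.01.

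Among other proteins that act on double-stranded RNA, OASL, an OAS family member that enhances RIG-I signalling, read 5.48 and 8.64 (a difference of 3.17), and TARBP2, a partner of Dicer and an inhibitor of PKR, differed by 0.04. OAS1, OAS2, OAS3, ADAR and PRKRA were not analysed here. The EIF2AK2 match, like that of TLR3, spans the start site; the stretch chr2:37156977-37157006, minus strand, runs 4 bases into the transcript.
EIF2AK2: gggaaggcggagtccaagggGAAAACGAAA

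MAVS, the adaptor through which RIG-I and MDA5 signal, stayed within 2-fold. It read 7.31 with the control shRNA and 7.03 with the cMyc shRNA, a difference of -0.28 (1.22-fold lower) that is smaller in size than the technical SD of 0.34. It ranked 7482 of 10258 by difference. Neither the 2-base nor the 1-base spacer motif occurred in its promoter window, which says only that those letters are not in these 300 bases.

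**Figure D1:**
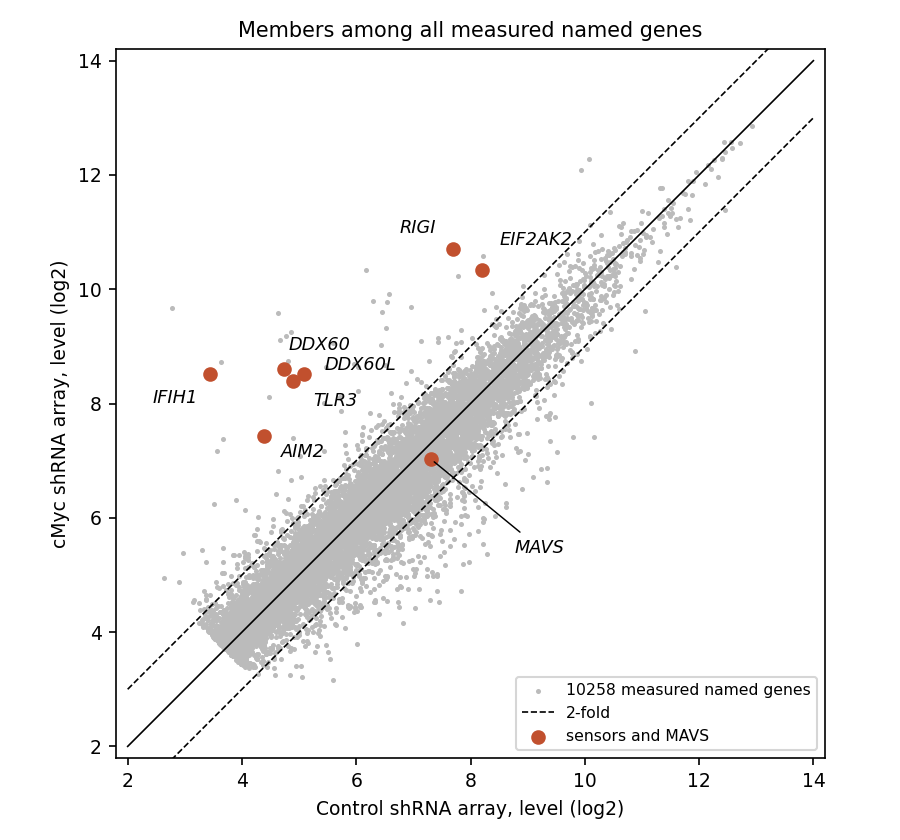
Log2 levels on the cMyc shRNA array against those on the control shRNA array, 1 grey point for each of 10258 measured named genes, with the 8 genes in red. The solid line marks equal levels and the dashed lines 2-fold; the 7 sensors lie above the upper dashed line and MAVS lies close to the solid one.

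Ordered by difference, the genes ran from IFIH1 (5.07) through DDX60, TLR3, DDX60L, AIM2 and RIGI to EIF2AK2 (2.12) and MAVS (-0.28). Neighbours from DDX60 to RIGI lay 0.02 to 0.40 apart, within the technical SD of 0.48 for a gap, so the order of neighbours is not settled. The ends of this run, DDX60 (3.87) and RIGI (3.01), lay farther apart than that SD. They are the extremes of a sorted run, whereas the SD is for any 2 probe sets, so their order is not settled either. The steps from IFIH1 to DDX60 (1.20), from RIGI to EIF2AK2 (0.89) and from EIF2AK2 to MAVS (2.40) were larger than 0.48. Exceeding that SD is a low bar that leaves out variation between cultures, so it settles no order by itself.

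By distance between the pairs of log2 levels, over these 2 arrays, DDX60L was the nearest of all measured genes to TLR3 (0.23), followed by DDX60 (0.26). EGR1, an immediate early transcription factor, was nearest to DDX60 (0.15). IFIT2, an RNA-binding interferon effector, was nearest to IFIH1 (0.28), HELZ2, a helicase-like coactivator, to AIM2 (0.50), and the ubiquitin ligase genes TRIM38 and DTX3L to RIGI (0.48) and EIF2AK2 (0.26). The genes nearest to MAVS were DHX29 (0.02), FCF1 and ARMC1, in a crowded part of the plot. Likeness of readings on 2 arrays is a weak measure, since any genes of similar brightness and difference meet it.

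Most other RNA-binding helicases around the cytosolic receptors lay within 2-fold. Of 16 measured genes in the list of RNA receptors and co-sensors 5 were at least 2-fold higher: IFIH1, RIGI, DDX60, DDX60L and DHX58, which encodes LGP2, the third RIG-I-like receptor, without a signalling domain of its own. DHX58 read 5.02 with the control shRNA and 7.09 with the cMyc shRNA, a difference of 2.07 (4.20-fold). The other 11 lay within 2-fold, from -0.89 for DDX41, a helicase described as a DNA sensor, and -0.61 for DHX33 to 0.53 for DHX36. DHX9, an abundant nuclear helicase, differed by -0.49, and the list median was -0.08. Without the chosen genes the median of the other 12 was -0.27.

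Most genes of proteins that tune RIG-I and MDA5 lay within 2-fold. Of 33 measured regulators 2 passed 2-fold upward and 1 downward, 22 had a difference above 0, and the median was 0.21. Over all 10258 measured named genes 4977 had one above 0 and the median was -0.01; whether the regulators differ from the rest was not tested. TRIM25 and RNF135 (also called Riplet), ubiquitin ligases that promote RIG-I signalling, differed by 0.95 and 0.92, just short of 2-fold. IFIT3, which bridges MAVS to the kinase TBK1 and also stands in the list of effectors, differed by 4.45, and TRIM38, a ubiquitin ligase that modulates both RNA receptors, by 2.45. PLK1, a mitotic kinase that can bind MAVS, differed by -2.75, and TRIM65, a ligase that activates MDA5, by -0.92.

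Transcripts of most genes that act downstream of MAVS and TRIF also differed little, and signalling itself was not measured. Of 23 measured kinases and factors 2 were at least 2-fold higher, TANK (1.04) and AZI2 (1.02), both adaptors of TBK1, and 0 passed it downward; the median was 0.10. TBK1, the kinase that activates IRF3, read 7.12 and 7.85 (a difference of 0.73). TRAF3 differed by -0.01, IRF3 by 0.23 and IRF7 by -0.02, the last with readings of 3.91 and 3.89 near the level minimum. At the low end were TAB2 (-0.72), an adaptor of the kinase TAK1, and EP300 (-0.41), a histone acetyltransferase.

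Among genes of the interferon response, most measured effectors stood at least 2-fold higher, whereas most receptor and signalling genes did not. None of the 22 listed interferon genes was analysed here, so no interferon level can be set beside the sensors. IRF9, the DNA-binding subunit of the interferon-activated factor ISGF3, read 5.44 and 8.01 (a difference of 2.57), and USP18, a protease that removes ISG15 and dampens the interferon receptor, read 4.86 and 9.25 (4.39). They were the 2 of 9 measured genes in the list of interferon receptors and signalling past 2-fold; SOCS3 (-0.42) and TYK2 (-0.09) were lowest, and JAK1 differed by 0.30. STAT2, IFI16, CASP1, IKBKE, ZC3HAV1 and EIF2S1 were not analysed here. Of 32 measured interferon-stimulated effectors, none of them among the 8 genes, 28 passed 2-fold upward and 0 downward, and the median was 2.57. Some, such as BST2 (control level 2.98) and IFI44L (2.63), counted as measured only through their cMyc shRNA levels. Without a level filter the median was 2.41. IFIT1, whose control level of 2.78 lay under the level minimum, had a difference of 6.90 as deposited and of 5.98 with both arrays raised to 3.70, and the ubiquitin-like modifier ISG15 of 3.35, while LAMP3 (-0.50) and IFITM2 (-0.08) were lowest. These lists were written with earlier results of these arrays known and are not independent evidence.

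**Figure D2:**
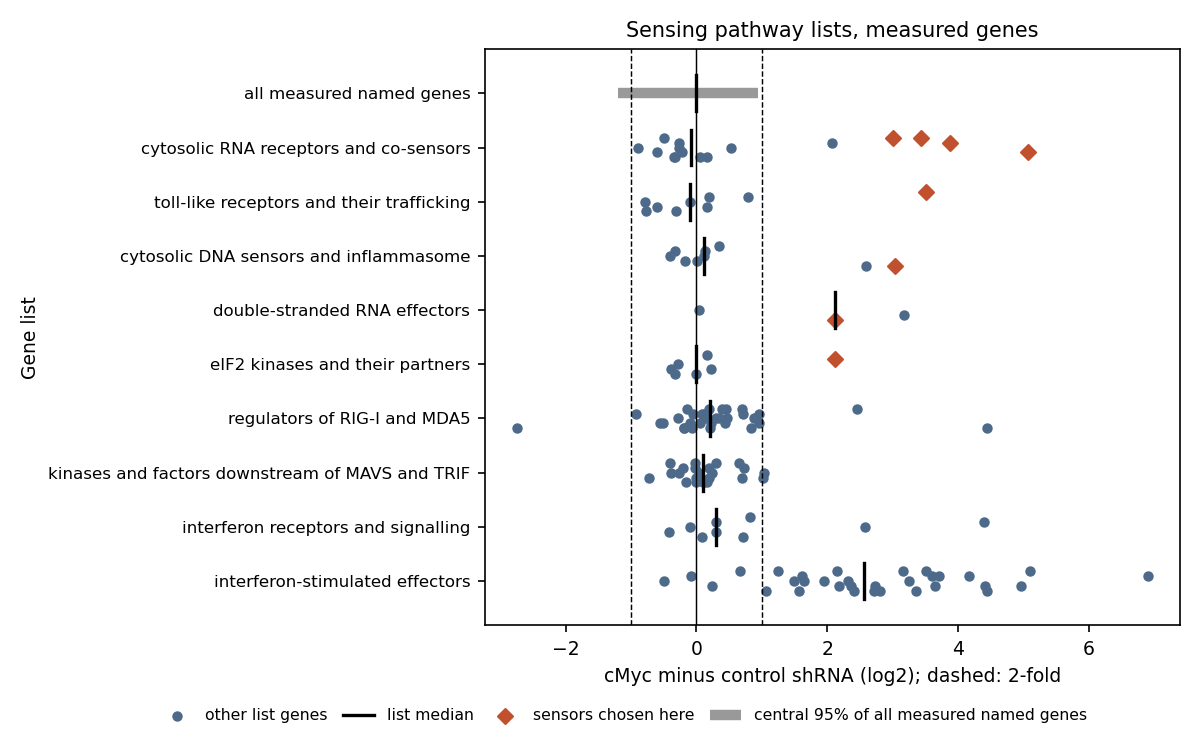
Log2 difference, cMyc shRNA minus control shRNA, of each measured gene in 9 lists around the sensors, with list medians as black bars and the chosen sensors as red diamonds; the grey bar at the top spans the central 95% of all measured named genes, from -1.20 to 0.94. In the lists of receptors the red diamonds stand apart from most other genes, whereas in the list of interferon-stimulated effectors most genes lie to the right of the 2-fold line.

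Across the whole promoter table the 2-base spacer motif was uncommon. It occurred in 1255 of 35116 windows of 300 bases (3.57%); a gene with several annotated starts has several windows, which can overlap. Among the 8 genes 6 windows held it (IFIH1, DDX60, DDX60L, TLR3, AIM2 and EIF2AK2). Of 191 windows of 143 other measured genes at least 2-fold higher 31 did (16.2%). Of 452 windows of 329 genes at least 2-fold lower 10 did (2.21%). Only 7900 of the 10258 measured named genes had a window, so these shares leave out genes without one. The interferon-stimulated effectors held it in 23 of 35 windows, which belong to 27 genes. Kinases and factors downstream of MAVS and TRIF held it in 1 of 33, and the toll-like receptor list without TLR3 in 0 of 7. Of the 32 measured effectors 28 were themselves at least 2-fold higher, so their windows overlap with the 191 and the shares are not separate.

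With the longer form that has a C after the second GAAA, which 0.795% of all windows held, 4 of the 8 genes had a match: IFIH1, EIF2AK2, DDX60 and DDX60L. Restricted to the 250 bases before the start, the 2-base spacer motif occurred in 4 genes, because the matches of TLR3 and EIF2AK2 run across the start. The 1-base spacer motif, found in 3.12% of all windows, occurred in RIGI, DDX60 and DDX60L; in the DDX60 pair it overlaps the match nearer the start. An NF-kappaB motif, GGGA, any 4 bases and CC (on the other strand GG, any 4 bases and TCCC), was common, in 25.6% of all windows, and 2 of the 8 genes held it: IFIH1 at 89 and 76 bases before the start and RIGI at 76 bases. No relation between a motif and a difference was tested.

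**Figure D3:**
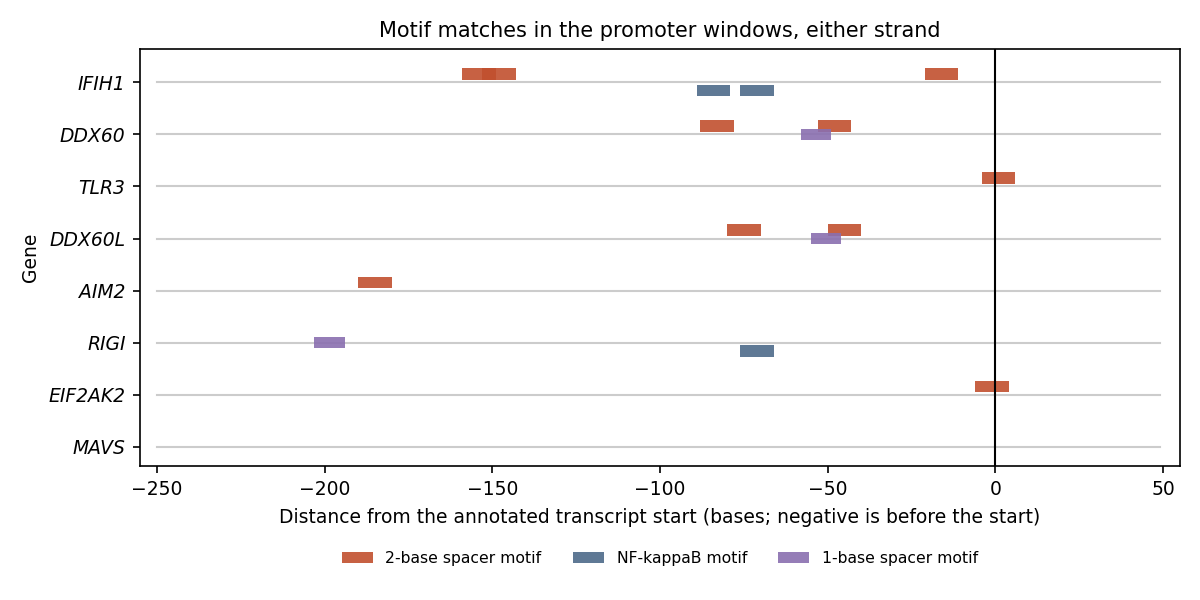
Position of motif matches in the 8 promoter windows, in bases from the annotated transcript start (0), either strand, with genes ordered by their difference. The red bars (2 bases between the blocks) reach or cross the start in TLR3 and EIF2AK2, lie within 88 bases of it in DDX60 and DDX60L and farther out in AIM2; RIGI has only the purple bar (1 base between the blocks) and a blue NF-kappaB bar, and MAVS has none.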

How the data were processed

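The deposited table holds log2 expression levels of 53617 probe sets on 2 arrays, between 1.41 and 13.9. The authors made them with Affymetrix Expression Console, per the submitters' processing notes; its version and the way it corrected background, normalized and summarized are not given in the sources used, and the log base was inferred from the range. Array medians were 3.68 (control) and 3.73 (cMyc shRNA). GEO's platform annotation gave 1 symbol to 16098 probe sets, all kept after a check through Entrez identifiers against RefSeq. A gene with several probe sets was represented by its brightest one on average. Precision of a single value is limited by having 2 arrays.

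The members and lists were chosen with earlier results of these data known. Named genes were the 8 members, 27 direct partners (12 named on the array), the 2 highest and 2 lowest measured genes of a list and the nearest genes by level; others were named after their values were seen. Promoters came from RefSeq (GRCh38.p14). A planned comparison of protein sequences was not run. Calculations used Python 3.11.15, numpy 2.4.6, pandas 2.3.3, statsmodels 0.14.6 and Biopython 1.88. The scaling steps and the fold rule were tried on simulated arrays with less noise than the technical SD. The motif search was tried on made-up sequences, and the alignment was not tried.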

Additional observations from a re-analysis of the deposited data

How the results depend on the processing

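Median centring, quantile normalization, loess, a floor at the median of all probe sets and the mean over probe sets left all 40 values of the 8 genes within the technical SD of 0.34 of those reported. Not all of these values were free to move. Each gene had 1 probe set, so the mean over probe sets could change none of them, and the floor could change only IFIH1. IFIH1 ranged from 4.81 to 5.08, EIF2AK2 from 2.08 to 2.17 and MAVS from -0.33 to -0.22. The number of the 8 genes at least 2-fold higher stayed at 7 under these settings, under the other level filters and at 1.5-fold and 4-fold. The number at least 2-fold lower stayed at 0. Of 102 list medians under other settings 99 moved by less than 0.34; the 3 others were those of toll-like receptors and endothelial markers (-0.55) at a 75th percentile level filter and of epithelial markers (-0.08) with no filter, where other genes are counted. That filter also left 126 in place of 206 measured genes at least 2-fold higher. Genes with a promoter match fell from 6 to 3 with the 1-base spacer motif, chosen after seeing the data. No paired analysis was possible because each group has 1 array. Control levels near the array median, as for IFIH1, limit how precisely a fold can be given.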

Other observations

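DDX60 and DDX60L resemble the helicase of the SKI complex, which feeds RNA into the cytoplasmic exosome, and no measured gene of that machinery stood at least 2-fold higher. The list of 18 measured genes also holds XRN1, the exonuclease that degrades RNA from the other end; 3 genes passed 2-fold downward, 1 upward, and the median was -0.09. XRN1 was the one upward and read 7.43 with the control shRNA and 9.15 with the cMyc shRNA, a difference of 1.71. The SKI helicase gene SKIC2 differed by -0.42 and its partner SKIC3 by -0.03. The exosome genes EXOSC2 (-1.91) and EXOSC5 (-1.27), which encode core subunits, were lower. Of the genes of catalytic subunits, DIS3L, the cytoplasmic one, differed by -1.01, EXOSC10 by -0.07 and DIS3 by 0.09.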
